A study of Mus musculus with 15 samples.

Results

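Expression of 7 genes of zinc handling, the importers Slc39a4 and Slc39a5, the exporters Slc30a1 and Slc30a10, the metallothioneins Mt1 and Mt2 and the metal-sensing transcription factor Mtf1, was measured by RNA-seq in the ileum of 15 mice. The genes were chosen by name, and they are 7 of the 17752 genes listed for at least 1 mouse. All 7 were listed in every mouse, and all 7 passed the filter on low counts that left 14386 genes for testing. The mice were C57BL/6 females of 8 weeks per the labels (of the substrain C57BL/6JOlaHsd per the study's methods), in 3 groups of 5, gavaged with water, with proanthocyanidins (PAC) of low molecular weight (low PAC) or with PAC of high molecular weight (high PAC). Both kinds of PAC were given at 200 mg/kg every 2 days for 10 days, and per the study's methods all groups ate the same purified diet and each mouse gave 1 library of ileal RNA. PAC are plant polymers of flavan-3-ol units, and the methods describe the second fraction from grape pomace as one of medium mean degree of polymerization. The name in the labels is kept here.

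Zinc enters the absorptive cells of the small intestine through SLC39 (ZIP) proteins, which move it into the cytosol, and leaves the cytosol through SLC30 (ZnT) proteins, which move it out of the cell or into organelles. In the cytosol it is bound by metallothioneins, small proteins rich in cysteine. MTF1 senses free zinc and binds metal response elements in the promoters of metallothionein genes and of Slc30a1, so these transcripts are widely read as a gauge of cellular zinc.

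The promoters of these genes are shown first, because MTF1 acts through metal response elements. The letters searched were the core TGCACNC or TGCGCNC, on either strand, with overlapping matches counted as 1 place, in the window from 250 bases before to 50 bases after the start of each gene in RefSeq (GRCm38.p6). Of the 7 genes 6 had a window, and Slc39a4 had none. For the 4 genes with at least 2 places in the window, the bases before the earlier of the RefSeq and GENCODE starts are printed. Capitals mark the core, and all 4 genes lie on the plus strand.
Mt1, chr8:94178839-94179081: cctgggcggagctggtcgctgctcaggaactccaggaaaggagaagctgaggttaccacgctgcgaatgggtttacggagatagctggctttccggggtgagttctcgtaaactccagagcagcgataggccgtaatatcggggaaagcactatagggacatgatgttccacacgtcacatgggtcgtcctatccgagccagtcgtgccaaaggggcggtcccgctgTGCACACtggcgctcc
Mt2, chr8:94172368-94172617: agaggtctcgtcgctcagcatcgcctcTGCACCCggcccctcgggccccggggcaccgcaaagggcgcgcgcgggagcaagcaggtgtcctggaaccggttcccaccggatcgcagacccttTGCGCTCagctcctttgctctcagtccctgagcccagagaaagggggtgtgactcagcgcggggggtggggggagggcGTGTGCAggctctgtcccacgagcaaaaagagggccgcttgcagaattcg
Slc30a1, chr1:191906531-191906766: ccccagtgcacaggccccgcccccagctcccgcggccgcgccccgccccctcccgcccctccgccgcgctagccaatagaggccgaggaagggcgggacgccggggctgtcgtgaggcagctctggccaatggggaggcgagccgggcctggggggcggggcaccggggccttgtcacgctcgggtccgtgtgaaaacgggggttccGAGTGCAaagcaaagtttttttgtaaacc
Slc30a10, chr1:185454598-185454847: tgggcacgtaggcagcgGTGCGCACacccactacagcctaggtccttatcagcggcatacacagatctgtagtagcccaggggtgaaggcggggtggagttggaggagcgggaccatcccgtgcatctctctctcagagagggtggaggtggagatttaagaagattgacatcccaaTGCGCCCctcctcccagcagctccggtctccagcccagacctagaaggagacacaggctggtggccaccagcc

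The whole windows held 4 places in Mt2, 3 in Mt1, 2 in Slc30a1 and 2 in Slc30a10. In Mt1, 1 place lay before the RefSeq start, from base -23 to -17, and the other 2 lay just after it. The Mt1 transcript compared with other genes below was 1085 bases long, against the 583 bases given by the authors. Which start the ileum uses was not tested, so these 2 places may also lie before a start farther on. Bases past the end of the window were not searched, so the counts do not rank whole promoters, such as those of Mt1 and Mt2. In Mt2, 3 places lay before the start, the farthest from base -223 to -217. In Slc30a10, the first place holds the core on both strands. The window of Mtf1 held 0 places, and 1 of the 2 windows of Slc39a5 held 1. Of 32851 promoter windows in the table, 25.7% held at least 1 place, 6.14% at least 2, 1.31% at least 3 and 0.295% at least 4. Of 25 genes of the wider zinc family with a window, 15 had at least 1 place and 3 had at least 3, which were Mt1, Mt2 and Slc30a4. Some of these genes have 2 windows, and each was counted by its window with the most places. The shares above are of single windows, so the units differ. These matches describe letters and were not tested for binding.

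Mt2 and Mt1 are neighbours on chromosome 8, from 94172664 to 94173568 and from 94179082 to 94180327 (GRCm38, GENCODE annotation, plus strand), with 5513 bases between them. Both exporters lie on the plus strand of chromosome 1, Slc30a10 from 185454848 to 185468762 and Slc30a1 from 191906767 to 191913247. Slc39a4 lies on chromosome 15 from 76612383 to 76617384 and Slc39a5 on chromosome 10 from 128395931 to 128401229, both on the minus strand, and Mtf1 on chromosome 4 from 124802104 to 124849800 on the plus strand. Reads were counted per gene, and stretches shared with an overlapping gene make part of a value uncertain. Of the 100-base windows of its transcript, 27.4% of Mt2 were also found in Gm45774, 8.26% of Mtf1 in 1110065P20Rik, 7.56% of Slc30a10 in Gm2061 and 7.19% of Slc30a1 in 1700034H15Rik. The share was 0.0% for Mt1, Slc39a4 and Slc39a5.

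The libraries held between 15963086 and 17903886 expected counts, the authors' estimates of the read pairs of each gene. The weakest of the 7 genes, Mt2, had between 151 and 603 of these counts per mouse, so differences between mice set the precision of its values more than counting did. Values below are FPKM (fragments per kilobase of transcript, scaled to the mapped fragments of the library), which allow levels of different genes to be compared. The ileal label was checked against marker genes. Fabp6, an ileal bile acid-binding protein, had a mean FPKM of 6826 over the 15 mice, and the 6 distal ileum markers summed to between 5215 and 11810. 3 libraries stood apart. In high PAC replicate 3, genes of at least 5000 bases were low beside genes under 1000 bases. The median deviation of the first from their usual level, less that of the second, was -0.785 on the log2 scale, against -0.112 to 0.141 in the other 14 libraries. In water replicates 1 and 3, smooth muscle markers were low, with a score (the mean over 7 markers of centred log2(FPKM + 0.1)) of -1.251 and -1.433, against -0.392 to 0.534 in the other 13 mice. The same 2 libraries had the lowest scores of 9 Paneth cell markers, at -0.291 and -0.954, against -0.217 to 0.45 in the others. Since whole tissue was measured, fewer cells of a type and less RNA per cell cannot be told apart. The labels give no more than mouse numbers, so p-values measure the spread between these mice.

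Slc39a4 was the most abundant gene of the family in the ileum of each group, and Mtf1 was the least abundant of the 7. With water, the mean FPKM was 112.9 for Slc39a4, 76.2 for Slc39a5, 71.3 for Mt1, 33.1 for Mt2, 18.2 for Slc30a10, 15.04 for Slc30a1 and 8.75 for Mtf1. Neighbours in this order that overlapped were Slc39a5 and Mt1, Mt2 and Slc30a10, and Slc30a10 and Slc30a1. In the low PAC group Mt1 (87.7) stood above Slc39a5 (77.5) with overlap. In the high PAC group Mt1 (94.6) overlapped Slc39a4 (97.4), and only 2 of the 5 mice had more Slc39a4 than Mt1.

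**Figure D1:**
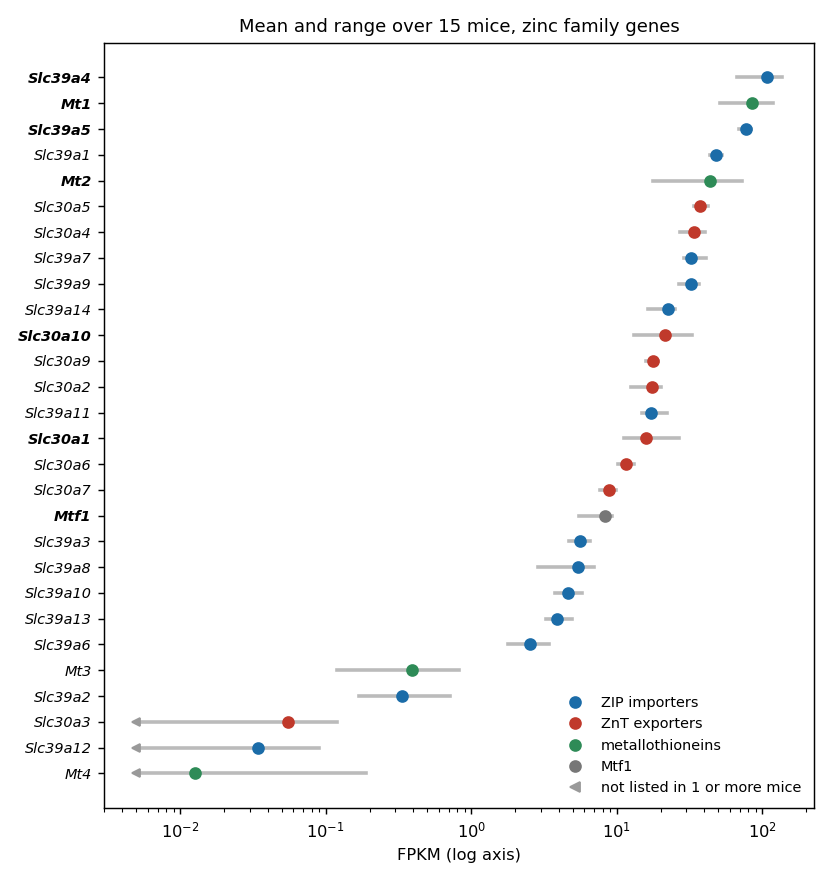
Mean FPKM (points, log axis) and range over the 15 mice (grey lines) of the 28 listed genes of the zinc family, coloured by class, with the 7 genes in bold. Slc39a4, Mt1 and Slc39a5 lie at the top with means of 107.2, 84.5 and 77.8, while Mt3, Mt4, Slc39a2, Slc39a12 and Slc30a3 lie under 1.

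No member passed the test in any comparison. edgeR's quasi-likelihood test was run on all genes, and a gene was called at a Benjamini-Hochberg adjusted p under 0.05. Of the 7 genes, 0 were called with low PAC against water (percent of all tested genes called 0.0%), 0 with high PAC against water (0.0139%) and 0 with high against low PAC (0.0%). DESeq2, limma-voom and limma on log2(FPKM + 0.1) also called 0 of the 7 in each comparison, where with high PAC against water they called 0.779%, 0.0139% and 0.0626% of all genes. At an unadjusted p under 0.05, edgeR gave 0 of 7 with low PAC against water (3.61% of all genes), 1 of 7 with high PAC against water, which was Mtf1 (14.8%), and 0 of 7 with high against low PAC (3.89%). By direction, the shares of all genes were 1.4% higher and 2.21% lower, 4.37% higher and 10.4% lower, and 1.84% higher and 2.05% lower in these comparisons. For high PAC against water this balance turned with the scaling, to 15.8% higher and 3.67% lower with limma on log2(FPKM + 0.1) and 10.5% higher and 5.67% lower with upper-quartile normalization, and without high PAC replicate 3 it was 5.25% higher and 5.62% lower. The FPKM of the groups overlapped for all 7 genes in every comparison. Over all genes tested, all 5 mice of the first group lay above the second group in 0.494%, 3.99% and 0.646%, and below it in 0.111%, 0.646% and 0.0904%. DESeq2 gave Mt2 with low PAC (3.49% of all genes) and Mtf1 with high PAC (14.9%) against water, and limma on log2(FPKM + 0.1) gave Mt2 (4.41%) and Mt1 (19.4%). In a simulation of high PAC against water with these library sizes and each gene drawn on its own, edgeR called 86% of 100 genes changed 2-fold. It left out the shift of long genes and the differences in tissue markers between libraries, so it is not a measure of power for the 7 genes. The size of difference that each gene's data allow is given by its 95% confidence interval.

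**Figure D2:**
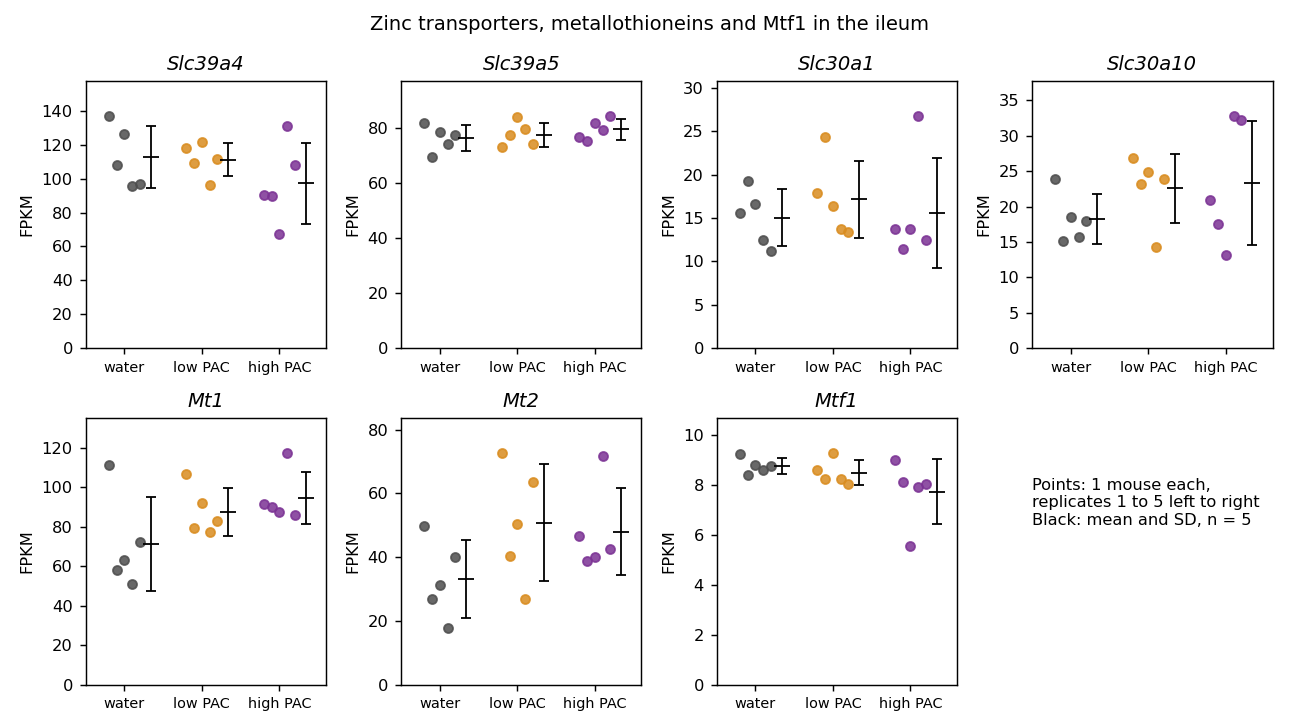
FPKM (vertical axes from 0) of each of the 7 genes in each mouse, by group, with the mean and SD of 5 mice beside the points. The groups overlap in every panel. Water replicate 1 stands at 111.63 in Mt1 above the other 4 water mice, and high PAC replicate 3 at 5.54 in Mtf1 below all others.

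Among the importers, Slc39a4 encodes ZIP4, which takes up dietary zinc at the apical surface of enterocytes. Its FPKM was 137.12, 108.18, 126.61, 95.90 and 96.74 in the water mice, 118.04, 109.18, 121.49, 96.15 and 111.56 with low PAC and 90.48, 89.57, 67.39, 131.30 and 108.17 with high PAC (replicates 1 to 5). In the high PAC group 3 mice lay below every water mouse, but replicate 4 stood among the highest of all, so the groups overlapped. The means were 112.9 ± 18.4, 111.3 ± 9.79 and 97.4 ± 23.9 (SD, n = 5). The log2 fold change was -0.31 with high PAC against water (standard error 0.16, 95% interval -0.65 to 0.03, adjusted p = 0.375, edgeR), -0.08 with low PAC against water and -0.23 with high against low PAC. Leaving out high PAC replicate 3 brought the change against water to -0.16 and that against low PAC to -0.11, and leaving out replicate 4 brought them to -0.45 (unadjusted p = 0.00758, adjusted p = 0.177, edgeR) and -0.37. The 2 water mice with the most Slc39a4, replicates 1 and 3, were those with low smooth muscle and Paneth cell markers. Without both, the change against water was -0.11 with high PAC and turned to 0.12 with low PAC. In the water and low PAC groups, Slc39a4 and the smooth muscle score went opposite ways. Their correlation over all mice, counted with the marker scores below, is therefore not read, and 5 mice are too few for one in a group. Among the water mice the 2 with the lowest scores had the most Slc39a4, while among the low PAC mice replicate 4, with the lowest score (-0.392), had the least and replicate 3, with the highest (0.396), the most. With high PAC, replicate 3 had the lowest score (-0.154) and the least Slc39a4, and replicate 2, with the highest score (0.534), had 89.57 FPKM. The part of these markers in the group means was not tested. Markers of enterocytes, the cells that make ZIP4, were read beside it. Of 8 such markers, led by Epcam with a mean of 1004 FPKM, 0 were called by edgeR with high PAC against water and 5 were lower at an unadjusted p under 0.05 (10.4% of all genes were). Without high PAC replicate 3, 4 were lower (5.62% of all genes). In that fit 3 were lower with low PAC against water (2.72% of all genes), in place of 0 with all mice (2.21%). The summed FPKM of the 8 markers ranged from 4298 to 5139 with water, from 4110 to 4442 with low PAC and from 3146 to 4486 with high PAC, where the 4 mice other than replicate 3 had 4070 to 4486, and none of the markers was at 0. Their part in the value of Slc39a4 was not tested.

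Slc39a5 encodes ZIP5, an importer on the opposite, basolateral face of the enterocyte. It was the steadiest of the 7 genes, with 81.64, 69.48, 78.59, 74.18 and 77.32 FPKM in the water mice, 73.07, 77.34, 83.78, 79.44 and 74.07 with low PAC and 76.79, 75.21, 81.87, 79.10 and 84.35 with high PAC. The highest mouse had only 1.21 times the FPKM of the lowest, and the groups overlapped almost wholly. The log2 fold changes in the 3 comparisons lay between -0.04 and -0.01, with 95% intervals inside -0.18 and 0.14, and their sign turned under other scalings, for instance to 0.06 with limma on FPKM for high PAC against water. The ratio of Slc39a4 to Slc39a5 had a median of 1.56 with water, 1.45 with low PAC and 1.19 with high PAC. The difference between high PAC and water did not pass an exact two-sided permutation test over the 5 and 5 mice (p = 0.135, where the smallest possible p is 0.0079).

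Of the exporters, Slc30a1 encodes ZnT1, which sends zinc out of the cell at its basolateral side. Its FPKM was 15.62, 19.25, 16.65, 12.47 and 11.19 in the water mice, 17.83, 24.30, 16.36, 13.76 and 13.37 with low PAC and 13.67, 11.42, 13.69, 26.76 and 12.43 with high PAC. High PAC replicate 4 had the highest value of all, while the other 4 mice of that group stood between 11.42 and 13.69. The log2 fold change was 0.13 with low PAC against water (standard error 0.24, 95% interval -0.38 to 0.64), -0.04 with high PAC against water and -0.18 with high against low PAC. The change of high PAC against water was -0.34 without high PAC replicate 4 and turned to 0.06 without water replicate 2. That of low PAC against water ran from -0.05 without low PAC replicate 2 to 0.23 without water replicate 2, and that of high against low PAC from -0.48 without high PAC replicate 4 to 0.00 without low PAC replicate 2.

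Slc30a10 belongs to the same family and is best known as an exporter of manganese. Its FPKM was 23.89, 15.09, 18.56, 15.67 and 17.95 in the water mice, 26.84, 23.23, 24.88, 14.24 and 23.84 with low PAC and 20.94, 17.52, 13.16, 32.81 and 32.20 with high PAC. The high PAC group was split, with 2 mice above every other mouse of the study and 1 below them all. With low PAC, 4 of the 5 mice lay close together and replicate 4 lay below every water mouse. The log2 fold change was 0.25 with low PAC (95% interval -0.25 to 0.75) and 0.26 with high PAC (-0.24 to 0.76) against water, with an adjusted p of 0.976 and 0.599 from edgeR. Without high PAC replicate 3 the second value was 0.45 (unadjusted p = 0.0495, adjusted p = 0.457, edgeR), and without replicate 4 it was 0.09 and without replicate 5 it was 0.12. The first was 0.38 without water replicate 1 or low PAC replicate 4. Without water replicates 1 and 3 together the values were 0.45 and 0.46.

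The metallothioneins had higher means in both PAC groups than with water, within the spread between mice. Mt1 had 111.63, 58.33, 63.03, 51.14 and 72.16 FPKM in the water mice, 106.64, 79.25, 92.27, 77.30 and 82.83 with low PAC and 91.64, 90.08, 87.74, 117.69 and 85.91 with high PAC. All 10 PAC mice lay above 4 of the 5 water mice, and water replicate 1 lay above 9 of the 10. The means were 71.3 ± 23.8 with water, 87.7 ± 12.1 with low PAC and 94.6 ± 13.1 with high PAC (SD, n = 5). The log2 fold change against water was 0.24 with low PAC (standard error 0.18, 95% interval -0.14 to 0.62, adjusted p = 0.976, edgeR) and 0.31 with high PAC (standard error 0.18, -0.07 to 0.69, adjusted p = 0.419). The exact permutation p on log2(FPKM + 0.1) was 0.143 and 0.0794. Without water replicate 1, the changes were 0.49 (unadjusted p = 0.00123, adjusted p = 0.999, edgeR) and 0.55 (unadjusted p = 0.000416, adjusted p = 0.287), the highest of the fits without 1 mouse. The lowest were 0.14 and 0.21 without water replicate 4, and the second was 0.21 also without high PAC replicate 4. Without water replicates 1 and 3, the pair with low smooth muscle and Paneth cell markers, Mt1 was at 0.52 and 0.59 (unadjusted p = 0.00184 and 0.000725, adjusted p = 1 and 0.397, edgeR). In that fit Mt1 and Mt2 were the 2 of 7 members with an unadjusted p under 0.05, both with low PAC (1.69% of all genes) and with high PAC (7.74%).

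Mt2 had 49.63, 26.98, 31.20, 17.86 and 39.96 FPKM in the water mice, 72.80, 40.29, 50.50, 26.79 and 63.62 with low PAC and 46.66, 38.76, 40.05, 71.70 and 42.54 with high PAC. With low PAC 3 mice lay above every water mouse, and with high PAC 1 did. Its spread was the widest of the 7 genes, as the highest mouse had 4.08 times the FPKM of the lowest. The log2 fold change against water was 0.56 with low PAC (standard error 0.28, 95% interval -0.04 to 1.16, unadjusted p = 0.0643, adjusted p = 0.976, edgeR) and 0.44 with high PAC (-0.16 to 1.03, adjusted p = 0.458). As folds, the intervals ran from 0.974 to 2.23 and from 0.894 to 2.05. Without water replicate 1 the values were 0.78 and 0.65, without water replicate 4 they were 0.40 and 0.28, and without high PAC replicate 4 the second was 0.23. Without water replicates 1 and 3 they were 0.84 and 0.71. High and low PAC differed by -0.12 (-0.72 to 0.47) in Mt2 and by 0.07 (-0.31 to 0.45) in Mt1. Of the other metallothioneins, Mt3, the brain form, had 1 to 6 counts per mouse, and Mt4, the form of stratified epithelia, had 1 count in 1 mouse. Both PAC groups share the water mice, so their differences from water are not independent of each other.

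Mtf1, the sensor, had 9.25, 8.38, 8.78, 8.59 and 8.76 FPKM in the water mice, 8.60, 8.25, 9.29, 8.23 and 8.05 with low PAC and 9.0, 8.12, 5.54, 7.92 and 8.05 with high PAC. In the high PAC group 4 of the 5 mice lay below every water mouse, 3 of them by less than 0.5 FPKM, and replicate 1 lay within the water range. The log2 fold change with high PAC against water was -0.28 (standard error 0.10, 95% interval -0.49 to -0.06, unadjusted p = 0.0152, adjusted p = 0.265, edgeR). An exact permutation test gave p = 0.0556 on log2(FPKM + 0.1) and p = 0.0079, the smallest possible, on log2 TMM-normalized CPM, which are counts scaled to the library but not to length. The length of Mtf1 in the files is 7631 bases, and its lowest value is that of high PAC replicate 3, the library in which long genes were low. The gene that overlaps it, 1110065P20Rik, was at 6.29 FPKM in that library against a mean of 3.62 over all mice. Without that library the log2 fold change was -0.14 (unadjusted p = 0.0252, adjusted p = 0.412, edgeR). The part of the long-gene measure in the value of Mtf1 was not tested. With low PAC against water the log2 fold change was -0.10 and with high against low PAC -0.17, or -0.06 without high PAC replicate 3 (unadjusted p = 0.304, edgeR). Without water replicates 1 and 3 the change with high PAC against water was -0.22 (unadjusted p = 0.0893, edgeR) and that with low PAC was -0.04.

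**Figure D3:**
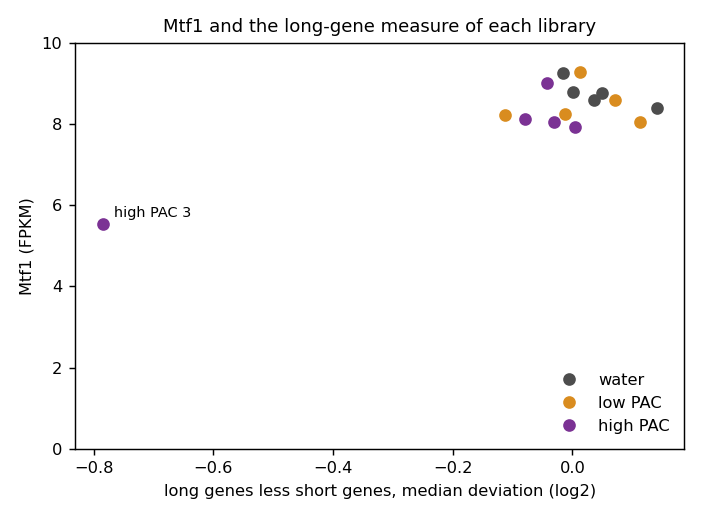
Mtf1 in FPKM (vertical axis from 0) against the long-gene measure of each library (horizontal axis, median deviation of genes of at least 5000 bases less that of genes under 1000 bases, log2), 1 point per mouse. High PAC replicate 3 stands alone at -0.785 and 5.54 FPKM, while the other 14 mice lie between -0.112 and 0.141.

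**Figure D4:**
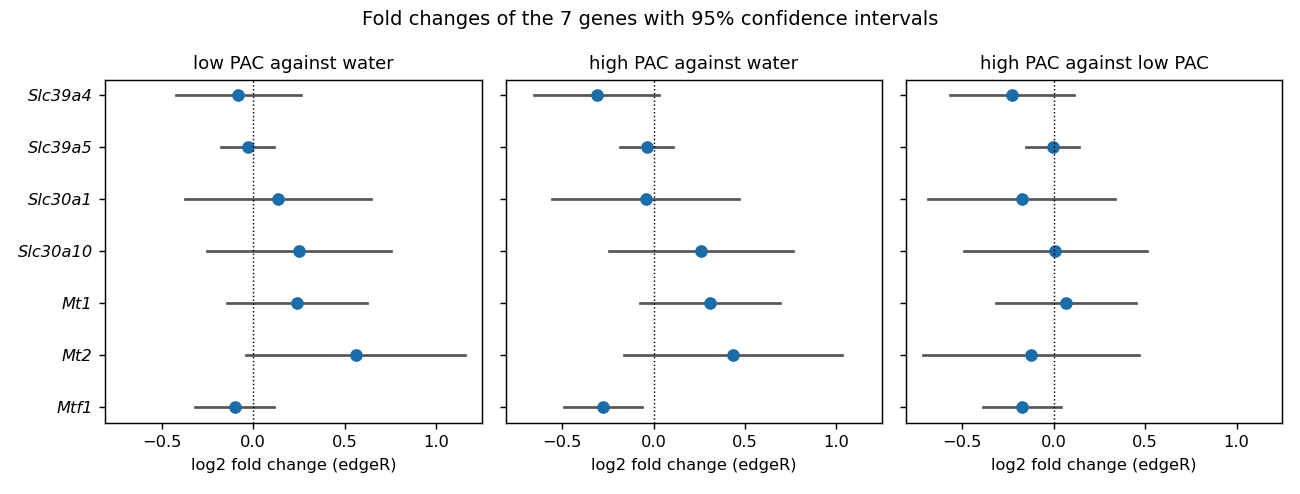
Log2 fold changes from edgeR (points) of the 7 genes with 95% confidence intervals (lines) in the 3 comparisons. The interval of Mtf1 with high PAC against water, -0.49 to -0.06, is the only one of the 21 that does not reach 0, and the widest intervals are those of Mt2.

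The wider family was then counted, with 14 ZIP genes, 10 ZnT genes, 4 metallothioneins and Mtf1, of which 28 were listed and 24 tested. Slc30a8, the zinc transporter of pancreatic beta cells, was not listed in any mouse. edgeR called 0 of the 24 in each comparison, as did DESeq2 and limma. At an unadjusted p under 0.05 edgeR gave 0 with low PAC against water, 3 lower (10.4% of all genes) and 0 higher (4.37%) with high PAC against water and 0 with high against low PAC. With limma on log2(FPKM + 0.1), 3 of the 24 were higher with high PAC against water (15.8% of all genes) and 0 lower (3.67%), and these were Mt1, Slc39a3 and Slc39a13 (the last pair named after their values were seen). Slc39a13, which encodes ZIP13, was the only 1 of the 24 whose FPKM did not overlap between high PAC and water, with all 5 mice above (3.99% of all genes), and its edgeR log2 fold change was 0.14 (adjusted p = 0.484). Their median log2 fold change was -0.032, -0.04 and -0.008 in the 3 comparisons, beside -0.014, 0.002 and 0.005 for all genes tested. Without high PAC replicate 3 it was -0.009, -0.01 and -0.001, beside 0.008, 0.015 and 0.006 for all genes, and with high PAC against water 1 gene was higher (Slc30a10, beside 5.25% of all genes) and 2 were lower (Mtf1 and Slc39a14, beside 5.62%) at an unadjusted p under 0.05. The 3 lower genes in edgeR were Mtf1, Slc39a14 and Slc30a7. Slc39a14 encodes ZIP14, an importer of zinc, iron and manganese, and had a log2 fold change of -0.25 (standard error 0.09, unadjusted p = 0.0151, adjusted p = 0.265, edgeR). It was at 16.43 FPKM in high PAC replicate 3 and between 21.94 and 22.78 in the other 4 mice of the group, and without that library the value was -0.13 (unadjusted p = 0.0352, adjusted p = 0.436, edgeR). Slc30a7 encodes ZnT7, which loads zinc into the Golgi, and had a value of -0.16 (standard error 0.07, unadjusted p = 0.0411, adjusted p = 0.318, edgeR), or -0.11 without high PAC replicate 3 (unadjusted p = 0.155). The most abundant other genes of the family were Slc39a1 with a mean of 47.9 FPKM, Slc30a5 with 37.5, Slc30a4 with 34.1, Slc39a7 with 32.4 and Slc39a9 with 32.4. Their log2 fold changes lay between -0.18 and 0.14 over the 3 comparisons, with adjusted p-values of at least 0.4085 from edgeR.

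Some of the 7 genes varied together between mice of the same group. For each of the 21 pairs, Pearson's r was taken over the 15 mice on log2(FPKM + 0.1) with group means subtracted, with permutations within groups. The relation passed a Benjamini-Hochberg adjusted p under 0.05 in 5 pairs, and a positive r was found in all 5. The closest pair was Slc39a4 and Slc30a10 (r = 0.880, permutation p = 0.00017, adjusted p = 0.00189, Spearman's rho = 0.882, permutation p = 0.00023), an importer of zinc and an exporter of manganese. With the 2 mice most distant in Slc39a4 left out it was 0.788, and 0.817 over the 14 mice without high PAC replicate 3. Mt1 and Mt2 followed (r = 0.826, permutation p = 0.00018, adjusted p = 0.00189, rho = 0.839, permutation p = 0.00063), with 0.813 and 0.824 on the same omissions. Mt1 had a median of 2.16 times the FPKM of Mt2 with water, 1.83 times with low PAC and 2.02 times with high PAC.

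Slc30a10 also varied with Mt2 (r = 0.692, permutation p = 0.0008, adjusted p = 0.0056, rho = 0.750, permutation p = 0.00084, r = 0.616 without the 2 farthest mice). It varied with Mt1 as well (r = 0.561, permutation p = 0.0055, adjusted p = 0.0289, rho = 0.561, permutation p = 0.0190). That r was 0.371 without the 2 mice farthest in Mt1, an omission that also narrows the range of Mt1. It was 0.611 over the 14 mice without high PAC replicate 3. Mt2 varied with Slc39a4 (r = 0.609, permutation p = 0.00909, adjusted p = 0.0382, rho = 0.657, permutation p = 0.0104, r = 0.535 without the 2 farthest mice). For Mt1 and Slc39a4 the adjusted p was 0.05002 (r = 0.591, permutation p = 0.0143), and r was 0.291 without the 2 farthest mice. Slc39a5, Slc30a1 and Mtf1 had no relation with another member whose r passed. For Mtf1 and Mt1, r and the rank correlation differed, with r = 0.270 (permutation p = 0.187, adjusted p = 0.393) and rho = 0.568 (permutation p = 0.0187, not adjusted), and r was 0.404 over the 14 mice without high PAC replicate 3 (permutation p = 0.114, adjusted p = 0.299). Mtf1 had r = 0.227 (permutation p = 0.315) and rho = 0.329 (permutation p = 0.232) with Mt2, and r = 0.025 (permutation p = 0.922) and rho = -0.004 (permutation p = 0.995) with Slc30a1.

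Among 12127 genes whose mean FPKM reached 1, those whose pattern was most like that of each of 3 members were ranked by the same r over the 15 mice, as a description. For Mt1 the closest was Mt2 with 0.826, and then Rassf1 (0.782), E2f3 (0.774), Cnot11 (0.745), Ankrd27 (0.734) and Rnf114 (0.725). For Slc39a4 they were Myo1e (0.975), Wwp2 (0.929), App (0.926), Unc5b (0.925) and Cacul1 (0.915), and Slc30a10 ranked 19. For Slc30a10 they were Prkx (0.947), Pi4k2a (0.928), Flvcr2 (0.921), Mfn2 (0.918) and Rab31 (0.915), and Slc39a4 ranked 14. These mice share library depth and the long-gene measure with every gene, and without high PAC replicate 3 the value for Myo1e was 0.966 and that for Prkx 0.927.

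The members were also set against 6 marker scores, each the mean over a list of centred log2(FPKM + 0.1), in 42 relations adjusted together. The position score, 7 markers of the proximal small intestine less 6 of the distal ileum, was meant to stand for where along the gut the piece was taken. Whether it does so was not tested. The relation of Slc30a1 with this score was the only 1 of the 42 that passed (r = -0.812, permutation p = 0.00015, adjusted p = 0.0063, rho = -0.889, permutation p = 7e-05). Mice with a more distal pattern had more Slc30a1. Without the 2 farthest mice r was -0.746, and over the 14 mice without high PAC replicate 3 it was -0.812 (adjusted p = 0.0197). The score had a median of 0.32 with water (range -0.196 to 1.43), 0.093 with low PAC (-1.24 to 0.524) and -0.348 with high PAC (-0.748 to 0.391). Of the 7 proximal markers, led by Rbp2 with a mean of 312.2 FPKM, 0 were called in any comparison by edgeR, while 2 with low PAC (2.21% of all genes) and 3 with high PAC (10.4%) were lower than water at an unadjusted p under 0.05. Without high PAC replicate 3 these counts were 1 (2.72% of all genes) and 3 (5.62%). Of the 6 distal markers, 2 had higher and 4 lower fitted values with high PAC against water (0 at an unadjusted p under 0.05, edgeR). The part of position in the group means of Slc30a1 was not tested. Scores of Paneth cells, which store zinc in their granules, of smooth muscle, of Peyer's patch B cells, of clock genes (8 genes such as Dbp less Arntl, Npas2 and Clock, which peak at the opposite time of day) and of glucocorticoid-responsive genes had no relation with a member that passed. The nearest was Mt2 with the clock score (r = -0.654, permutation p = 0.00672, adjusted p = 0.141, rho = -0.554, permutation p = 0.0454). For smooth muscle, r was negative among the water mice and positive among the low PAC mice for each member. Pooling such groups cancels r, so the values over all mice cannot show that a relation with smooth muscle was absent.

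**Figure D5:**
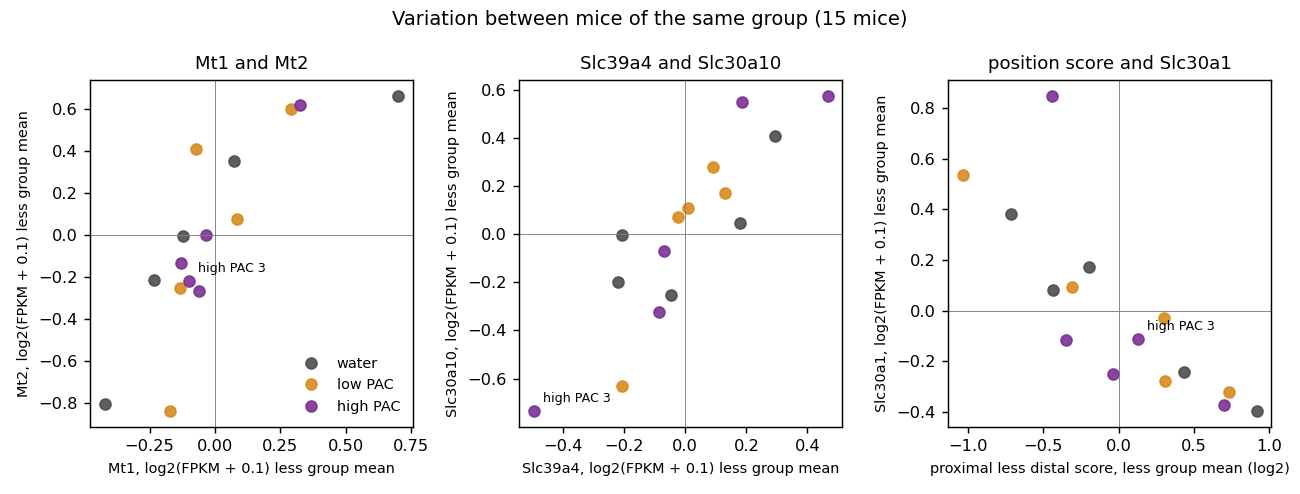
Each point is 1 of the 15 mice, with group means subtracted from log2(FPKM + 0.1) or from the score. Mt2 is plotted against Mt1 (r = 0.826), Slc30a10 against Slc39a4 (r = 0.880) and Slc30a1 against the position score (r = -0.812), and mice of all 3 groups lie along each trend.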

How the data were processed

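Ileal RNA of 15 mice was sequenced by the authors, who cleaned the paired-end reads and mapped them to mm10. The methods name Bowtie2 and the submitters' processing notes HISAT and DESeq2, and the counting tool is not given in the sources used here. The authors deposited for each mouse an expected count per gene, which is not normalized, and its FPKM, with 2 decimals and no gene under 0.01. Genes not listed were taken as 0. Columns of fold changes were not used.

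After rounding, the expected counts went into edgeR 4.0.16 in R 4.3.3 (filterByExpr, TMM, quasi-likelihood test), in 1 model of 15 mice and with Benjamini-Hochberg adjustment over 14386 genes. DESeq2 1.42.0 and limma 3.58.1 were alternatives, as were other normalizations and filters, a replicate block, and the fits without each mouse. Single genes were compared by exact two-sided permutation on log2(FPKM + 0.1), and relations by 100000 permutations within groups. The script was tested on simulated data of high PAC against water with 14314 genes, where edgeR called 86 of 100 genes changed 2-fold, 96 of 100 changed 4-fold and 7 unchanged genes. Libraries held 15963086 to 17903886 expected counts.

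The members and gene lists were chosen with earlier results of these data known. The 7 members are named in full, and of other family genes the 5 most abundant and those with an unadjusted p under 0.05. Of the other lists, the gene with the highest mean FPKM is named, and 5 genes most like a member in pattern. The relations and list counts without high PAC replicate 3 and the fit without water replicates 1 and 3 were added after seeing the data. Promoters are from RefSeq and coordinates from GENCODE, where all 28 listed family genes matched by gene identifier.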

Additional observations from a re-analysis of the deposited data

Results flagged for a closer look

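Of 21 sets of 5 mice (7 genes in 3 groups), 4 had 1 mouse far from the others, with a gap to the nearest mouse that was more than 0.71 of the range of the set on the log2(FPKM + 0.1) scale (Dixon's critical value). Chance alone puts about 1 set in 20 past this value. In the high PAC group these were the highest mouse of Mt1 (replicate 4, 117.69 FPKM, share 0.795), the highest mouse of Slc30a1 (replicate 4, 26.76 FPKM, share 0.788) and the lowest mouse of Mtf1 (replicate 3, 5.54 FPKM, share 0.736). In the low PAC group it was the lowest mouse of Slc30a10 (replicate 4, 14.24 FPKM, share 0.772). High PAC replicate 4 also had the highest Slc39a4, Mt2 and Slc30a10 of its group.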

How the results depend on the processing

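Leaving out any 1 of the 15 mice, another normalization, no filter on low counts, only the 2 groups compared, a replicate block, DESeq2 and limma all left 0 of the 7 genes and 0 of the 24 family genes called in each comparison. The count of relations between members was 6 on TMM-normalized log2 CPM in place of 5, and that with marker scores remained 1. The number of members with an exact permutation p under 0.05 for high PAC against water was 0 on log2 FPKM and 1 (Mtf1) on log2 TMM-normalized CPM. Upper-quartile normalization moved the median of all genes with high PAC against water to 0.07, and limma on log2(FPKM + 0.1) to 0.09. Log2 fold changes that turned sign were near 0, and the cause was not tested. With limma on FPKM (both pseudocounts) and upper-quartile normalization, Slc39a5 was at 0.02 and 0.00 with low PAC against water, at 0.06 and 0.03 with high PAC against water and at 0.04 and 0.03 with high against low PAC, where it was 0.00 also with no filter or only the 2 groups. Slc30a1 with high PAC against water was at 0.01 with limma on FPKM and at 0.02 with upper-quartile normalization. Slc30a10 with high against low PAC was at -0.05 with limma-voom, -0.01 with limma on FPKM and -0.02 with the replicate block.

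Without 1 mouse, values that turned sign at one end ran from -0.03 to 0.13 (Mt1) and -0.33 to 0.03 (Mt2) for high against low PAC, -0.15 to 0.01 (Slc39a4) for low PAC against water, -0.07 to 0.01, -0.07 to 0.00 and -0.03 to 0.02 (Slc39a5, low PAC and high PAC against water, high against low PAC), -0.05 to 0.23, -0.34 to 0.06 and -0.48 to 0.00 (Slc30a1, in the same order) and -0.16 to 0.17 (Slc30a10, high against low PAC). Mouse numbers 1 to 5 recur in each group. The mean Pearson r across genes was 0.124 for same-numbered and -0.031 for other pairs of low PAC and water mice. It was 0.149 and -0.038 for high PAC and water, and -0.123 and 0.032 for high and low PAC. In the same order, same-numbered pairs ran from -0.272 to 0.386, -0.216 to 0.445 and -0.307 to 0.065. Other pairs ran from -0.319 to 0.396, -0.498 to 0.554 and -0.339 to 0.474. Not every mouse correlated best with its own number. These values do not settle whether the numbers pair mice, and they were not taken as a pairing in the main fit. In the fit without water replicates 1 and 3, chosen after seeing the data, 0 members were called, and sign turned for Slc39a4 with low PAC (0.12), Slc39a5 with low PAC (0.05) and high PAC (0.04) and Slc30a1 with high PAC (0.06) against water. With the number as a block, 0 members were called and Slc30a10 with high against low PAC was at -0.02.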

Other observations

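Other gene lists were read in the same libraries, with 0 genes called by edgeR at an adjusted p under 0.05 in any list and comparison. Of 11 zinc-dependent enzymes of the brush border, 0 were higher and 6 lower with high PAC against water at an unadjusted p under 0.05, with a median log2 fold change of -0.38 against 0.002 for all genes (of which 10.4% were lower at that threshold). Their summed FPKM ranged from 6569 to 8440 with water, from 6156 to 7451 with low PAC and from 3272 to 6995 with high PAC, where 3272 was replicate 3 and the other 4 mice had 6529 to 6995. Without that library, 6 were lower with high PAC (5.62% of all genes) and the median was -0.28, and with low PAC against water 4 were lower (2.72% of all genes) in place of 1 (2.21%). The fall was not particular to these enzymes. In the same fit, 4 of the 8 enterocyte markers were lower with high PAC against water, with a median of -0.18. Anpep, aminopeptidase N, was the most abundant of the 11 enzymes (mean 2989 FPKM, log2 fold change -0.53, adjusted p = 0.268, edgeR), with 1216 FPKM in high PAC replicate 3 and 2717 to 3057 in the other 4 mice of the group, and without that library its value was -0.32 (adjusted p = 0.334, edgeR).

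The counts that follow, at an unadjusted p under 0.05, stand beside 1.4% of all genes higher and 2.21% lower with low PAC against water, and 4.37% higher and 10.4% lower with high PAC against water. Of 8 genes of manganese handling, Slc30a10 and Slc39a14 included, 1 was lower with high PAC against water (Slc39a14), and Arg2, a manganese enzyme of arginine breakdown, was the most abundant with a mean of 72.97 FPKM. Of 12 genes of copper handling, 1 was higher with low PAC and 2 higher and 1 lower with high PAC against water, and Sod1, the copper and zinc superoxide dismutase, led with 359.6 FPKM. Of 11 glucocorticoid-responsive genes, led by Cdkn1a with 154.3 FPKM, and of 12 clock output genes, led by Nr1d1 with 64.4, 0 reached an unadjusted p under 0.05 in any comparison. Of 8 acute-phase genes, led by the antimicrobial lectin Reg3b with 3043 FPKM, 1 was lower with high PAC against water. All 7 smooth muscle markers, led by Acta2 with 209.6 FPKM, had higher fitted values in both PAC groups than with water (0 at an unadjusted p under 0.05), and their summed FPKM was 315.4 to 1009, 636.4 to 1098 and 759.3 to 1211 with water, low PAC and high PAC. Of 9 Paneth cell markers, led by Defa17, 1 was higher with high PAC. The 8 Peyer's patch B cell markers, led by Cd79a with 24.66 FPKM, ranged from 5.71 to 231.9 FPKM in sum over the mice, with 0 at an unadjusted p under 0.05. Of 7 macrophage markers, led by C1qa with 34.56 FPKM, 1 was lower with high PAC. Of 5 genes of the endocrine pancreas, Ins1 and Ins2 were not listed, and Gcg, which the gut also makes, was higher in both PAC groups at an unadjusted p under 0.05. Without high PAC replicate 3, where 5.25% of all genes were higher and 5.62% lower, the counts with high PAC against water were 1 higher and 0 lower for copper handling, 1 higher (Slc30a10) and 1 lower for manganese handling, 2 lower for acute-phase genes, 2 lower for macrophage markers and 0 for Paneth cell markers.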
